A study of Drosophila melanogaster with 2 samples.

Results

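Spps, named as an Sp1-like factor for pairing-sensitive silencing, is a zinc finger DNA-binding protein of the Sp/KLF family, known from work on Polycomb response elements. Its chromatin was recovered by ChIP-seq with an antibody against GFP from whole Drosophila melanogaster embryos aged 0 to 12 h of a transgenic line in which Spps carries GFP at its C-terminal end. There were 2 biological replicates of 1 group, both from the same tagged line, with no untagged or mutant group. Per the labels, chromatin was sonicated to between 200 and 800 bp. The genes described are the translation factors, chosen as the protein-coding genes of the Ensembl annotation whose symbol begins with eIF or eEF. There were 52 such genes among 13968 protein-coding genes. The embryos were not dissected or sorted, so no summit can be placed in a tissue. The deposited lists give peaks without read counts, and library depth is therefore not known.

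Eukaryotic initiation factors (eIF) bring the initiator tRNA, the mRNA and the small ribosomal subunit together, find the start codon and let the large subunit join. Elongation factors (eEF) then deliver aminoacyl-tRNAs to the ribosome and move it along the mRNA. Most of these proteins are needed in every growing cell, while a few genes of the family are second copies used mainly in the germline.

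Spps-GFP summits were found at the promoters of 18 of the 52 translation factor genes (34.6%) in the reproducible peaks, the list thresholded on the irreproducible discovery rate (IDR), where 13.6% of all protein-coding genes had one. A promoter summit here is a peak summit within 500 bp of any annotated transcription start site (TSS) of the gene, and the list held 3260 peaks. The genes were eIF4EHP, eIF6, eEF1gamma, eIF3h, eIF2A, eIF1, eIF2D, eEF1alpha1, eIF3c, eIF1A, eIF2beta, eIF3a, eIF5B, eEF5, eIF4A, eIF3k, eIF3m and eIF2Bepsilon, in order of peak signal. They held 19 summits, because eEF1alpha1 had 2. Another 14 genes had a summit in both replicate lists below the IDR list, 9 in some list only, and 11 in none of the 4 lists. The 11 were 21.2% of the family, against 36.6% of all protein-coding genes. With or without an IDR summit, 32 genes were in both replicate lists (61.5%, against 44.2%). The shares of all genes that match the 14 and the 9 were not computed.

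The sequence under several of these summits is shown because the DNA replication-related element (DRE, TATCGATA), a core promoter element of many housekeeping genes bound by the factor DREF, lay close to them. Capitals mark the DRE, its CGATA core and, in eEF1gamma, Motif 6, another core promoter element. Each sequence is the 100 bp to either side of the summit, cut where an annotated exon begins, read on the strand of the gene from RefSeq assembly release 6 (dm6 coordinates). The sequences lie at chr3R:29220028-29220171 (plus strand) for eEF1gamma, chr3L:3222961-3223157 (plus) for eIF1, chr3R:18274447-18274635 (plus) for eIF1A and chr2L:5981645-5981763 (plus) for eIF4A. The summit of eIF4EHP (chr3R:24109107-24109307, minus strand), the strongest of the family, is given as one that holds none of the marked elements. The summits of eIF1, eIF1A and eIF4EHP lie closer to the start of a gene on the other strand than to their own.
eEF1gamma: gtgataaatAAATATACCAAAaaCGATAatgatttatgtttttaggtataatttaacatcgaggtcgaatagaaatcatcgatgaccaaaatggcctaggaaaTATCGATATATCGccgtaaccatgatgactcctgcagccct
eIF1: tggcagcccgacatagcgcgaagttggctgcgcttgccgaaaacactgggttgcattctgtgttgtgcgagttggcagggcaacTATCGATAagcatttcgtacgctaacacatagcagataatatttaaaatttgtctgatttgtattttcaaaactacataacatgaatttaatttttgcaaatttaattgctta
eIF1A: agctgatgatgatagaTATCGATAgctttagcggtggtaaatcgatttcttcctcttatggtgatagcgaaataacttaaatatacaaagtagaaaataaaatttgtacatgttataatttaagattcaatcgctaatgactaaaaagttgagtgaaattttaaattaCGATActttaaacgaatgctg
eIF4A: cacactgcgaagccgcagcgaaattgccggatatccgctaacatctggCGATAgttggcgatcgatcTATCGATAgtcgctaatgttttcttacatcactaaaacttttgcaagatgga
eIF4EHP: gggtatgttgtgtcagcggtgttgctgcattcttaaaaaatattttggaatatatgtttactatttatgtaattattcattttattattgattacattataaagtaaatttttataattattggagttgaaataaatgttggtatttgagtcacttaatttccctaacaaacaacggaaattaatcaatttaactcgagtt

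A DRE lay within 100 bp of 7 of the 19 promoter summits of translation factor genes (36.8%) and of 6.12% of all 1388 promoter summits of the IDR list. The genes were eIF6, eEF1gamma, eIF2A, eIF1, eIF1A, eIF3a and eIF4A. The centre of the element lay 6.5 bp from the summit in eEF1gamma, 8.5 bp in eIF1 and 96.5 bp in eIF6, with a median of 29.5 bp over the 7 genes. In eIF1 and eIF1A the element lay at -292.5 and -198.5 bp from the gene's own TSS. Those summits were closer to the opposite-strand genes RpL28 and Vps39, at 97 and 89 bp, so these DREs cannot be assigned to the translation factor alone. In the 3260 strongest peaks of replicate 2, taken without replicate 1, 4 of 13 such summits held one (30.8% against 5.53%), and in those of replicate 1, taken without replicate 2, 5 of 17 did (29.4% against 6.0%). The element was also in reach of promoters that had no IDR summit: within 200 bp of a TSS it occurred in 13 of the 52 genes (25%, against 9.72% of all protein-coding genes), of which 5 had an IDR promoter summit by this measure and 8 did not. The match is to letters only, on both strands, and says nothing of the factor that binds there.

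Other motifs searched on both strands within 200 bp of a TSS are given beside their share over all protein-coding genes. The CGATA core, which every DRE contains, was found in 38 of the 52 genes (73.1% against 59.5%), the E-box CACGTG in 6 (11.5% against 6.98%), Motif 1 in 4 (7.69% against 4.72%), Motif 6 in 2 (3.85% against 2.36%) and Motif 7 in 13 (25% against 18.3%). The TATAAA box was found in 26 (50% against 53.5%), the GAGA site GAGAG in 20 (38.5% against 43.7%), the Pho site GCCATTT in 9 (17.3% against 13.3%) and the Zelda site CAGGTA in 10 (19.2% against 11.7%). From 250 bp before to 50 bp after a TSS, Pho was in 4 genes, below the share of all genes (7.69% against 9.92%), and Zelda in 5 (9.62% against 8.43%). Within 500 bp of a TSS, the E-box was in 8 genes (15.4% against 15.4%) and the CGATA core in 44 (84.6% against 81.8%). The Sp/KLF core, GGGCGTG or GGGCGGG, the kind of site that the family of Spps is known to bind, was found in 4 genes (7.69% against 6.65%): eIF2Bgamma, eIF3c, eIF3d1 and eIF6. It lay within 100 bp of the IDR promoter summits of eIF3c and eIF6, 2 of 19 summits, against 1.08% of all promoter summits. The TCT initiator, known from ribosomal protein promoters and read on the gene's strand with the C of its +1 position within 5 bp of a TSS, occurred at eEF2, eIF3f1 and eIF3m (3 of 52, 5.77% against 0.931%), and the common Initiator in 2 (3.85% against 11.5%).

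**Figure D1:**
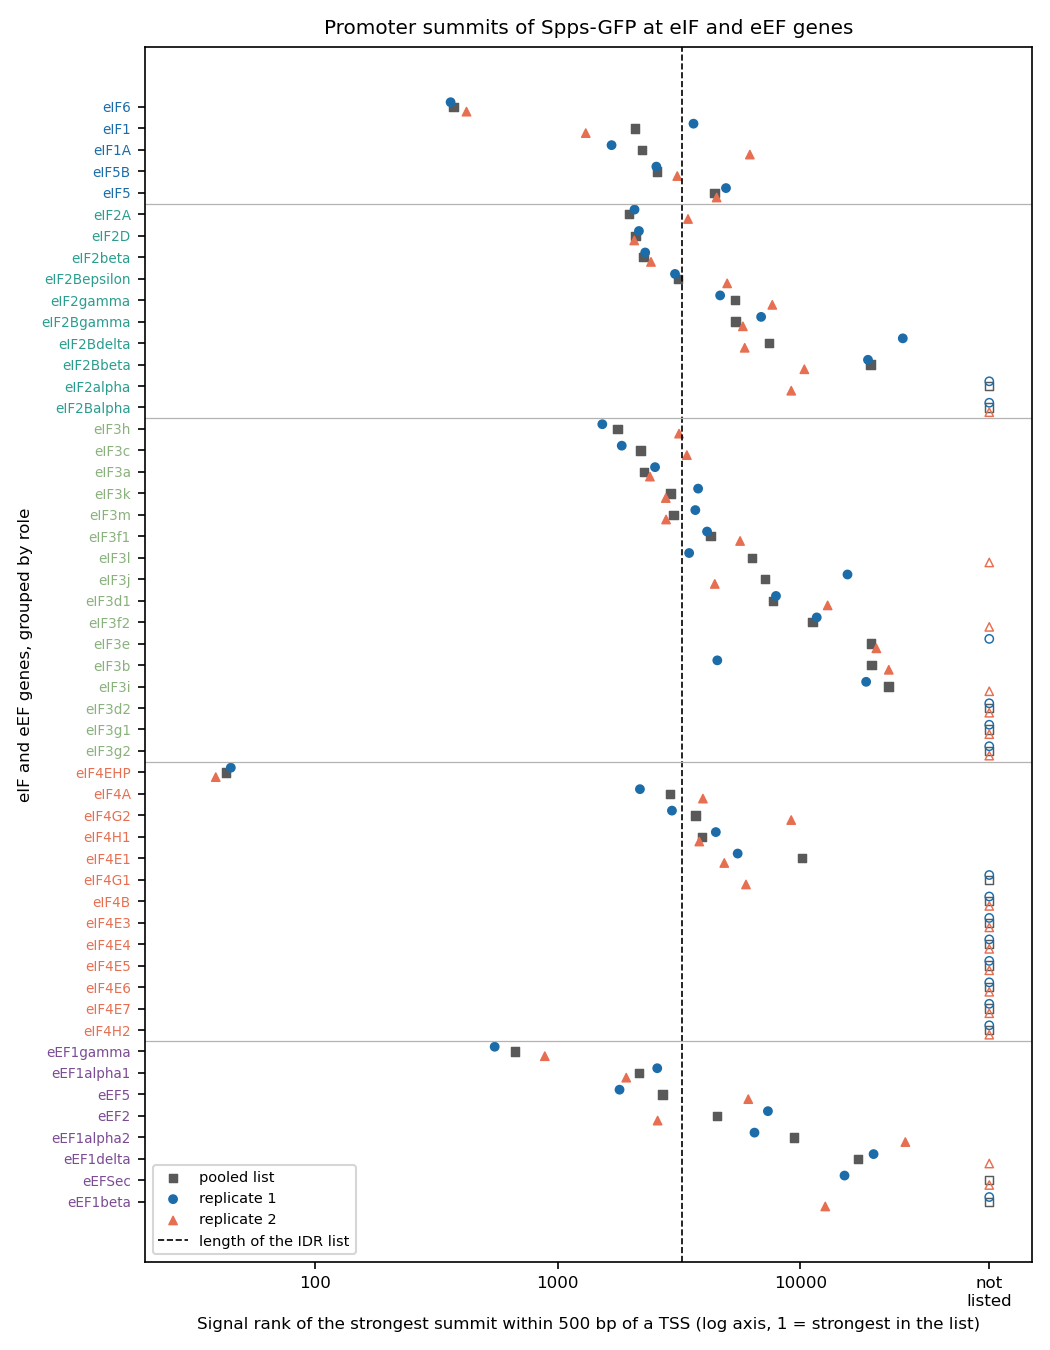
Signal rank of the strongest summit within 500 bp of a TSS, on a log axis where 1 is the strongest peak of a list, for the 52 genes grouped by role. Squares are the pooled list, circles replicate 1, triangles replicate 2, open symbols a gene with no such summit in that list, and the dashed line is the length of the IDR list (3260). eIF4EHP stands far to the left of all other genes, and the eIF4 group holds 7 of the 11 genes listed nowhere.

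Signal is the authors' peak value, in a unit that the sources used here do not state. The IDR list carries the signals of the pooled list, while each replicate list has its own values, so signals are compared within a list. Of the 18 genes, 3 had a peak among the 1000 strongest of the IDR list (5.77% of the family, against 4.52% of all genes). These were eIF4EHP, eIF6 and eEF1gamma, and the remaining 15 ranked between 1761 and 3129. The median signal of the strongest promoter peak was 128 over the 18 genes and 158 over the 1897 genes with an IDR promoter summit, and the median ranks were 2214 and 1589. Most summits of the family thus sat in the lower part of the list.

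The strongest peak belonged to the cap-binding group. eIF4EHP (FBgn0053100) encodes a homolog of the cap-binding protein eIF4E that binds the cap without recruiting the initiation machinery and represses specific mRNAs in the early embryo. Its peak (chr3R:24109025-24109354) ranked 43 in the IDR list with a signal of 760. The signal was 450 in replicate 1 (rank 45) and 307 in replicate 2 (rank 39), so both replicates placed it among their strongest peaks. The summit was intergenic, 247 bp upstream of eIF4EHP but only 129 bp upstream of CG18428, a gene that runs the other way. A further IDR summit (signal 114.9, rank 2629) lay 9788 bp into the gene, in an intron.

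Among the factors for start codon choice and subunit joining, 4 of 5 had an IDR promoter summit (80%, against 13.6% of all genes). Counting for each summit only the gene of the nearest TSS left 2 of 5 (40%, against 9.77%). eIF6 (FBgn0034915), which keeps the ribosomal subunits apart, had its peak at chr2R:23850309-23850517 with an IDR signal of 331 (rank 372). The signal was 207 in replicate 1 (rank 362) and 124 in replicate 2 (rank 421), with the replicate summits 4 bp apart, 104 bp upstream of the TSS and in an intron of ytr. eIF1 (FBgn0035423), which guards start codon selection, had a peak at chr3L:3222950-3223063 (signal 133), with 59.4 in replicate 1 (rank 3627) and 70.5 in replicate 2 (rank 1305). Its summit lay 284 bp upstream of eIF1 and 97 bp upstream of RpL28, a ribosomal protein gene on the other strand, and the replicate summits were 146 bp apart, the widest gap among the 19. eIF1A (FBgn0026250), the partner of eIF1 on the small subunit, had a signal of 96.1 in replicate 1 (rank 1667) and 28.1 in replicate 2 (rank 6190). That summit lay 130 bp upstream of eIF1A and 89 bp upstream of Vps39.

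eIF5B (FBgn0026259), the GTPase of subunit joining, had its promoter summit 162 bp downstream of a TSS in the 5′ UTR (signal 116). The signal there was 73.9 in replicate 1 and 41.9 in replicate 2. A pair of IDR summits in its introns were stronger, with signals of 177 (rank 1332) and 127 (rank 2236), so in this gene the promoter did not hold the highest peak. eIF5, which stimulates GTP hydrolysis by eIF2, had no IDR summit, though both replicates listed one, with signals of 49.3 (rank 4936) and 33.6 (rank 4516).

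**Figure D2:**
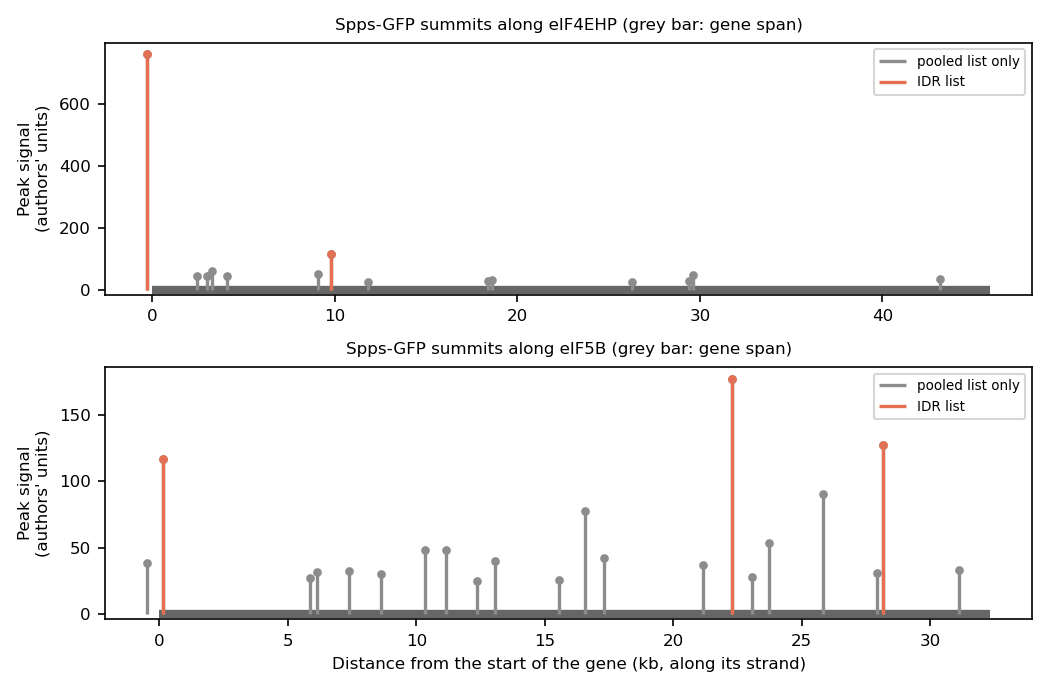
Spps-GFP summits along eIF4EHP and eIF5B, the longest genes of the family, by distance from the start of the gene in kb, with the signal of the pooled list on the vertical axis. Orange lines are summits in the IDR list and grey lines those in the pooled list only. eIF4EHP holds 1 dominant summit just before the gene and eIF5B has its strongest summits over 20 kb inside the gene, at 22296 and 28143 bp.

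eIF2 carries the initiator tRNA, and eIF2B recharges it with GTP. Of the 10 genes with a symbol beginning with eIF2, 4 had an IDR promoter summit: eIF2A, eIF2D, eIF2beta and eIF2Bepsilon. The factors eIF2A and eIF2D entered the group by symbol and were counted in neither complex. By complex, 1 of 3 core eIF2 genes (33.3%) and 1 of 5 eIF2B genes (20%) had one, against 13.6% of all protein-coding genes. eIF2D (FBgn0041588), a factor known for delivering tRNA without GTP, had a peak at chr3R:29151792-29152167 (IDR signal 132), with 81.8 in replicate 1 (rank 2161) and 53.2 in replicate 2 (rank 2067). eIF2beta (FBgn0004926), the only core eIF2 subunit of the 3 with an IDR summit, had a signal of 79.1 in replicate 1 (rank 2293) and 48.4 in replicate 2 (rank 2423). For these both replicates gave nearly the same rank.

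eIF2A (FBgn0037135) had 83.8 in replicate 1 (rank 2073) and 39.5 in replicate 2 (rank 3443), with the summit in its own 5′ UTR. eIF2Bepsilon (FBgn0023512), the catalytic subunit of eIF2B, had the weakest peak of the family (IDR signal 103, rank 3129), with 66.1 in replicate 1 (rank 3043) and 31.7 in replicate 2 (rank 4992). Its summit fell in the 5′ UTR of Ocrl, 246 bp from the TSS of eIF2Bepsilon and 139 bp inside Ocrl. The alpha subunit of eIF2 was listed in replicate 2 alone (signal 22.7, rank 9168), and eIF2Balpha in no list, while 4 of the 5 eIF2B genes were in both replicate lists.

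eIF3, the many-subunit scaffold that holds the small ribosomal subunit, had IDR promoter summits at 5 of 16 genes: eIF3h, eIF3c, eIF3a, eIF3k and eIF3m. The share was 31.25%, against 13.6% of all protein-coding genes. eIF3a (FBgn0037249) encodes the largest subunit, with a peak at chr3R:4433702-4434077. Its signal was 74.7 in replicate 1 (rank 2518) and 48.6 in replicate 2 (rank 2399), and the IDR summit lay 5 bp downstream of the TSS, with CG1074 starting 75 bp away on the other strand. eIF3h (FBgn0022023) had the highest IDR signal of the subunits, 147, with 101 in replicate 1 (rank 1527) and 41.5 in replicate 2 (rank 3162). That summit was in the first part of the gene, 260 bp downstream of a TSS in an intron. The signals of eIF3c, eIF3k and eIF3m were 90.5, 58.0 and 58.8 in replicate 1 and 39.8, 44.7 and 44.6 in replicate 2.

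The eIF3 subunits that exist as a pair of genes had no IDR summit. Of the copies numbered 1, eIF3d1 and eIF3f1 were in both replicate lists and eIF3g1 in none. Of the copies numbered 2, eIF3f2 was in the replicate 1 and pooled lists (replicate 1 signal 28.8, rank 11674), and eIF3d2 and eIF3g2 were in no list.

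The eIF4 group, which binds the cap and unwinds the mRNA, had IDR promoter summits at 2 of 13 genes (15.4%, close to the 13.6% of all protein-coding genes). Besides eIF4EHP it was eIF4A (FBgn0001942), the RNA helicase, with an IDR signal of 108 at chr2L:5981557-5981932, and 81.3 in replicate 1 (rank 2182) and 36.2 in replicate 2 (rank 3966). Its summit lay 19 bp upstream of the TSS. eIF4E1, the general cap-binding protein, was in both replicate lists (signals 45.9, rank 5515, and 32.3, rank 4856), but the closest replicate summits were 296 bp apart. The scaffold gene eIF4G1, on chromosome 4, was listed only in replicate 2 (signal 28.7, rank 5968).

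The 5 further eIF4E genes, eIF4E3 to eIF4E7, had no promoter summit in any of the 4 lists, and neither did eIF4B and eIF4H2. eIF4E3 is known for a role in the testis, as is eIF4G2, but eIF4G2 was in both replicate lists (signals 67.0, rank 2956, and 22.7, rank 9164), with summits 6 bp apart. The nearest pooled summit to eIF4E3 lay 4762 bp from its TSS and that to eIF4E6 1232 bp. For eIF4B the nearest summit lay 591018 bp away in the pooled list, 591011 bp in replicate 1 and 3320552 bp in replicate 2. The gene lies near the end of arm 3L (27842669-27858271 of 28110227 bp), so the gap covers a wide region and not this gene alone. Whether peaks could be called in that region was not tested. Of all protein-coding genes, 36.6% had no promoter summit in any list, against 11 of 52 here (21.2%). The lists stop at 30000 peaks, so a missing peak does not show that binding was absent.

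Among the 8 elongation factor genes 3 had an IDR promoter summit (37.5%, against 13.6% of all protein-coding genes). eEF1gamma (FBgn0029176), a subunit of the complex that recharges eEF1alpha, led with an IDR signal of 261 (rank 668) at chr3R:29220035-29220219. The signal was 176 in replicate 1 (rank 550) and 88.8 in replicate 2 (rank 885), the replicate summits lay 2 bp apart, and the nearest TSS of another gene was 3300 bp away. At the summits of eIF4EHP and eIF6 another gene began closer, at 129 and 668 bp. eEF1alpha1 (FBgn0284245), which delivers aminoacyl-tRNAs, had a summit at each of 2 start sites, with IDR signals of 130 and 118. The first had 69.5 in replicate 1 and 55.7 in replicate 2, and the other 73.5 and 40.5. Both lay within 41 bp of a TSS.

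eEF5 (FBgn0285952), the hypusine-carrying factor also called eIF5A, had a summit 1 bp from a TSS, with 91.6 in replicate 1 (rank 1798) and 28.3 in replicate 2 (rank 6098). eEF2, the translocase, had no IDR summit, though its signal was 46.7 in replicate 2 (rank 2580), inside the 3260 strongest of that replicate, and 38.6 in replicate 1 (rank 7349). eEF1alpha2, the second eEF1alpha gene, was near the end of the replicate 2 list (rank 27068, replicate 1 rank 6469). eEF1beta was listed in replicate 2 alone, eEFSec, the selenocysteine factor, in replicate 1 alone, and eEF1delta in the replicate 1 and pooled lists.

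**Figure D3:**
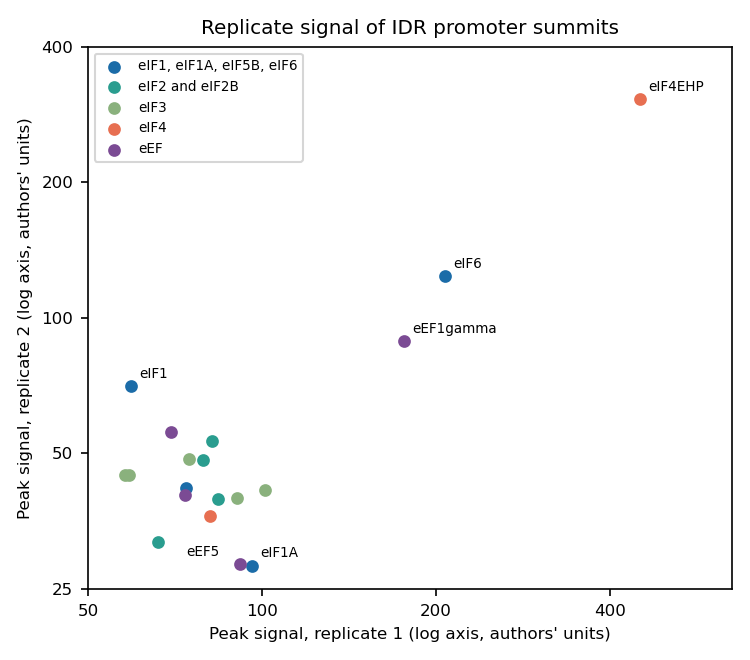
Peak signal in replicate 1 against replicate 2 for the 19 IDR promoter summits, each a dot coloured by role, on log axes in the authors' units, each replicate list with its own values. eIF4EHP, eIF6 and eEF1gamma are the 3 highest in both replicates, and of the others eIF1 is the highest and eIF1A and eEF5 the lowest in replicate 2.

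All 19 promoter summits had a summit within 200 bp in both replicate lists, but the ranks were not equally high. Of the 19, 16 were among the 3260 strongest peaks of replicate 1, 12 among those of replicate 2 and 9 in both (47.4%). Over all promoter summits of the IDR list, 71.9% were in both. The matched replicate summits lay 2 to 146 bp apart with a median of 54 bp, against a median of 29 bp over all promoter summits. Replicate 2 alone placed a summit at 13 of the 52 promoters in its 3260 strongest peaks (against 12.9% of all genes), without eEF5, eIF1A, eIF2A, eIF2Bepsilon, eIF3c and eIF4A but with eEF2. Replicate 1 alone gave 16 (against 14.1%), without eIF1, eIF3k and eIF3m but with eIF4G2.

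The lower parts of the lists added genes of every group. The pooled list had a promoter summit at 37 of the 52 genes (71.2%, against 55.0% of all protein-coding genes), replicate 1 at 37 (against 54.9%) and replicate 2 at 36 (against 51.7%). Both replicate lists had one at 32 (61.5%, against 44.2%), among them all 5 genes for start codon choice and joining. They also included 8 of 10 genes with a symbol beginning with eIF2, 9 of 16 for eIF3, 5 of 13 for eIF4 and 5 of 8 elongation factors. This count does not require the 2 replicates to have the same summit. With replicate summits within 200 bp of each other, 29 genes remained (55.8%, against 39.0% of all genes). The closest replicate summits were 533 bp apart at eIF3b, 296 bp at eIF4E1 and 285 bp at eIF2Bbeta. Of the genes without an IDR summit, eIF4H1 stood first by the worse of its 2 replicate ranks, with signals of 52.6 (rank 4483) and 37.1 (rank 3831). In replicate 1 and replicate 2, eIF3f1 had signals of 55.3 (rank 4125) and 29.5 (rank 5643), eIF2Bgamma 40.1 (rank 6889) and 29.2 (rank 5794), and eIF2gamma 51.2 (rank 4670) and 25.04 (rank 7659). With eIF4H1, the others of the 8 genes best by their worse rank were eIF5, eIF4E1, eEF2 and eIF4G2. Weaker in one replicate or the other were eIF3d1, eIF3j, eIF3b, eIF2Bbeta, eIF2Bdelta and eEF1alpha2, whose worse ranks ran from 12950 to 27068. eIF3l and eIF3i were in the replicate 1 and pooled lists only (replicate 1 ranks 3480 and 18657), and eIF3e in those of replicate 2 and the pool (replicate 2 rank 20559).

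**Figure D4:**
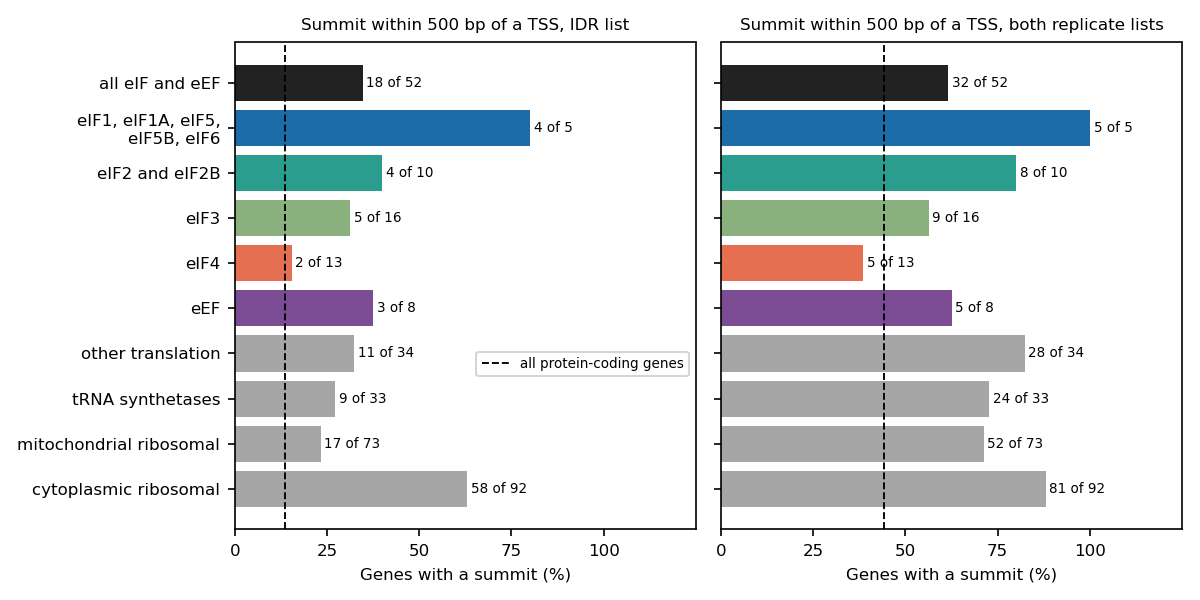
Share of genes, in percent, with a summit within 500 bp of a TSS in the IDR list (left) and in both replicate lists (right), for the translation factors and their role groups (coloured) and for other gene families of protein synthesis (grey), with the counts beside each bar. The dashed line is the share over all protein-coding genes, 13.6% left and 44.2% right, and the eIF4 group is the group nearest to it on the left.

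Other families of protein synthesis had IDR promoter shares above and below the 34.6% of the translation factors. Of the cytoplasmic ribosomal protein genes 58 of 92 had an IDR promoter summit (63.0%), of the mitochondrial ribosomal protein genes 17 of 73 (23.3%) and of the aminoacyl-tRNA synthetase genes 9 of 33 (27.3%), beside 18 of 52 translation factors. By nearest TSS only, the translation factors had 14 of 52 (26.9%) and the cytoplasmic ribosomal family 56 of 92 (60.9%). The mitochondrial family then had 6 of 73 (8.22%) and the synthetases 6 of 33 (18.2%), against 9.77% of all genes. In both replicate lists the translation factors had the lowest share of these families, 61.5%. The others had 88.0% (cytoplasmic ribosomal), 71.2% (mitochondrial ribosomal) and 72.7% (synthetases). No test of these differences was made. A list of 34 further translation genes had 11 (32.4%), including larp (signal 636), an mRNA-binding regulator, the initiation factor relative NAT1 (signal 192), the eIF2 kinase Gcn2 (signal 186), both release factors, eRF1 (135) and eRF3 (140), the eIF4E inhibitor Thor (117), and Dph1 and Dph2 (124 and 190), which make the diphthamide of eEF2. The eIF2 kinase PEK, the poly(A)-binding protein gene pAbp and S6k had a summit in both replicate lists but not in the IDR list. Of the 34 genes, 28 had a promoter summit in both replicate lists (82.4%).

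Summits of the family lay close to the start sites. The strongest IDR promoter summit lay within 100 bp of the gene's own TSS in 10 of 18 genes (55.6%), against 27.5% of all 1897 genes with one, with a median position of -53.5 bp against -139 bp. It lay upstream in 14 and downstream in 4 (77.8% upstream, against 87.0%). The median was -11.5 bp over the ribosomal protein genes and -185 bp over the mitochondrial ones. The DNA at the summit had a median GC content of 39.8% over the 19 summits and 32.3% over all promoter summits, in windows of 100 bp to either side.

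**Figure D5:**
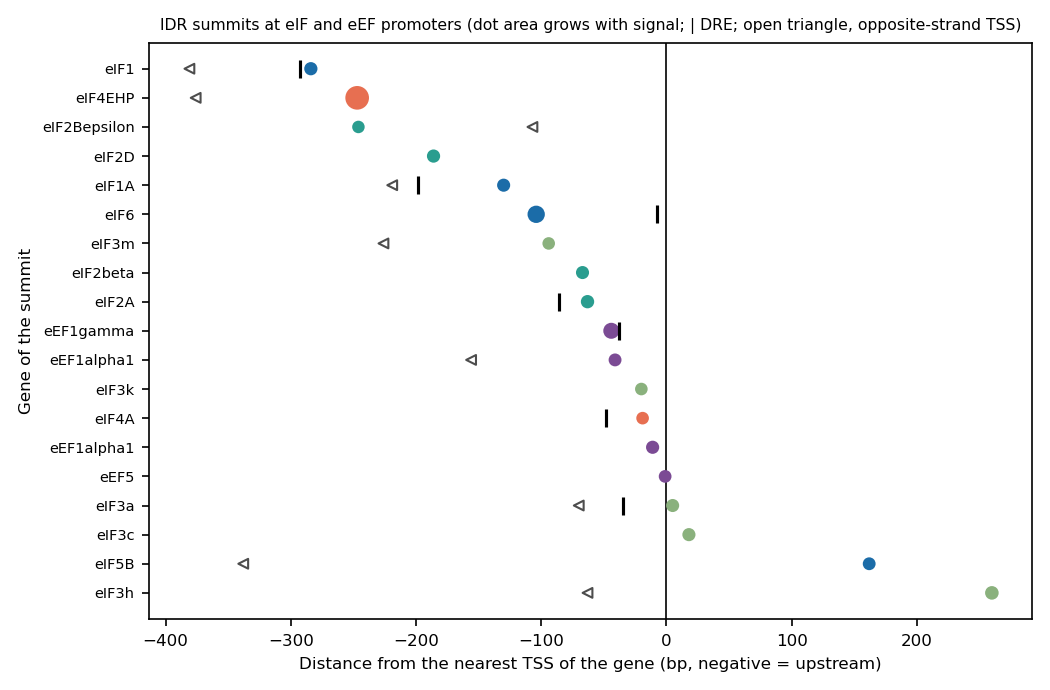
Position of the 19 IDR promoter summits relative to the nearest TSS of the gene in bp, negative upstream, with dot area growing with signal and colour showing the role group. Black bars are DREs within 100 bp of the summit, and open triangles start sites of genes on the opposite strand within 500 bp of it. Most dots lie just upstream of 0, and those of eIF1, eIF4EHP, eIF1A and eIF2Bepsilon lie closer to the opposite gene's start site than to their own.

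Genes with an IDR summit had a start site on the opposite strand nearby about as often in the family as over all protein-coding genes. A protein-coding TSS on the opposite strand lay within 1000 bp upstream for 12 of the 18 genes with an IDR summit (66.7%) and for 14 of the 34 without (41.2%), against 65.5% and 31.6% over all protein-coding genes. Of the translation factor genes with no such partner, 6 of 26 had an IDR summit (23.1%, against 7.34% of all genes with none), and of those with a partner 12 of 26 did (46.2%, against 24.6%). The summit was closer to the gene's own TSS than to any other in 14 of 18 genes, and eIF4EHP, eIF1, eIF1A and eIF2Bepsilon were the exceptions. Counting for each summit only the gene of the nearest TSS left 14 of 52 genes, against 9.77% of all genes.

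Few of the genes had an IDR summit inside them over 500 bp from any TSS. An IDR summit lay in the gene span of 7 of the 52 genes (13.5%, against 8.82% of all protein-coding genes), and all 7 also had a promoter summit. Over 500 bp from any TSS it lay in eIF5B and eIF4EHP only, 2 of 52 genes (against 5.3%). These are long genes, 32320 and 45884 bp, where the median of the family was 1955 bp and that of all protein-coding genes 2165 bp. In the longer lists a summit lay in the span of 27 genes in the pooled list (51.9%, against 42.7% of all genes), 25 in replicate 1 (48.1%, against 43.9%) and 27 in replicate 2 (51.9%, against 45.7%). The pooled list held 20 summits in eIF5B and 13 in eIF4EHP, mostly in introns. In eIF4EHP those at 3258 and 4115 bp from the gene start also fell in the 5′ UTR of Syx1A, a gene that overlaps it.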

How the data were processed

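Peak lists on dm6, per the labels, were used as deposited: 1 per replicate, 1 pooled over both replicates and 1 IDR list derived from these 3, all against the same control, per the listings that accompany the samples. Neither aligner and caller nor filters and IDR threshold are given in the sources used. Peak signal was taken as the authors deposited it, and the deposited −log10 q-value was read but not used, since it is the same for all IDR peaks. Coordinates were made 1-based. Gene models were those of Ensembl release 115 (BDGP 6.54), leaving out transposable elements. The genome sequence was RefSeq assembly release 6, and all gene ends fell within its arms.

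Each summit was given to every protein-coding gene with a TSS within 500 bp. With 1 group of 2 replicates no contrast between conditions was possible, and no test was made: counts stand beside the same counts over all protein-coding genes, and genes are not replicates. The Initiator and TCT windows place the motif's +1 base within 5 bp of a TSS. Of 37 further translation genes listed, 34 matched the annotation by symbol. The rule for named genes took every member, with replicate signals for those with an IDR summit and replicate signals and ranks for the 8 best of the others by the worse replicate rank. Values of other genes were named after they were seen. Members and lists were chosen with earlier results of these data known. Assignment and motif search were tested on simulated data. The software was Python 3.11.15, NumPy 2.4.6, pandas 2.3.3 and matplotlib 3.10.9.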

Additional observations from a re-analysis of the deposited data

How the results depend on the processing

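The 18 genes with an IDR promoter summit became 3 among the 1000 strongest peaks (5.77%, against 4.52% of all genes) and ranged from 13 to 16 without one replicate. Genes with an IDR summit in the span numbered 22 with the span extended by 2000 bp (42.3%, against 26.0% of all genes), 2 without the 500 bp next to a TSS (3.85% against 5.30%), 0 among the 1000 strongest peaks (against 3.33%), and 5 to 7 without one replicate (9.62% against 8.84%, and 13.5% against 8.78%). Summits with a DRE within 100 bp numbered 4 to 5 without one replicate, an alternative chosen after the data were seen, as were windows of 50 and 200 bp. With 500 bp to either side of a TSS, Motif 6 was in 4 genes (7.69%, against 3.54% of all genes), GAGA in 35 (67.3% against 70.6%), Sp/KLF in 10 (19.2% against 18.9%), Pho in 18 (34.6% against 26.3%) and Zelda in 20 (38.5% against 26.9%). With 250 bp before to 50 bp after a TSS, Pho was in 4 (7.69% against 9.92%) and Zelda in 5 (9.62% against 8.43%). With the 5′-most TSS only, GAGA was in 13 (25% against 37.4%), Zelda in 5 (9.62% against 9.13%), the Initiator in 1 (1.92% against 8.02%) and TCT in 1 (1.92% against 0.566%). Of the other 47 alternative values, those that are counts stayed within 1.5 times the reported count, a limit that leaves out the share of all genes. The rest were median summit positions, to which this limit does not apply. With 500 bp to either side of a TSS, the E-box was in 8 genes (15.4% against 15.4%) and the CGATA core in 44 (84.6% against 81.8%). Motif 7 was then in 17 (32.7% against 29.4%) and Motif 1 in 4 (7.69% against 6.16%). TATAAA was in 35 (67.3% against 77.7%) and the DRE in 18 (34.6% against 13.0%). The reported median summit position was -53.5 bp (against -139 bp over all genes). It was -34 bp without replicate 1 (against -142 bp) and -37 bp without replicate 2 (against -136 bp). With the 5′-most TSS only it was -44 bp (against -132 bp). The cause of these changes was not tested. No paired analysis was possible because there is 1 group. Depth is unknown, so how far it limits weak summits cannot be given.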

Other observations

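Promoters of 15 translation factor genes held 2 or more pooled summits (28.8%, against 17.9% of all protein-coding genes), among them eEF1alpha1 with 4 and eIF4A and eIF4E1 with 3 each. Genes with an IDR promoter summit were 6 of 13 on arm 2R (against 12.9% of all genes there), 5 of 15 on 3R (against 15.02%), 4 of 11 on 3L (against 14.4%), 2 of 5 on 2L (against 14.2%), 1 of 7 on X (against 10.8%) and 0 of 1 on chromosome 4 (against 8.75%).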
